A study of Homo sapiens with 6 samples.

Results

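ATF4 is the transcription factor that cells use when amino acids run short or proteins misfold. Stress kinases phosphorylate the initiation factor eIF2, general translation slows, and the ATF4 message is translated better, so that ATF4 protein rises mainly through translation, a step that message counts do not measure. With partners of the C/EBP family ATF4 binds C/EBP-ATF response elements and induces genes that make amino acids and folate units, import amino acids and load them on tRNA, together with stress genes such as DDIT3 and CHAC1. In endothelial cells this programme is known for supplying serine and one-carbon units for growth and for the response to nutrient or redox stress.

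The genes described here are 41 written by symbol, and each of the 41 matched exactly 1 of the 18544 genes in the count table. They comprise 12 regulators and stress response genes, 7 enzymes of amino acid and folate metabolism, 4 amino acid transporters and 18 cytosolic aminoacyl-tRNA synthetases. All 41 passed the filter on low counts, as did 18482 genes in all.

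The libraries are of poly-A RNA from HMEC-1 cells, a human dermal microvascular endothelial line that was immortalised, kept in MCDB131 with glucose at 5.5 mM. The group Set7KD (n = 3) carried a lentivirus for an shRNA that targets Set7, the lysine methyltransferase encoded by SETD7. The group NTC (n = 3) carried a lentivirus for an shRNA without a target. All libraries thus come from a single cell line after a lentiviral treatment, and the number of hairpins, the time after treatment and whether the libraries came from separate transductions are not stated in the labels used here.

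Each library held 16385878 to 16953331 gene counts, so that 1 count was worth 0.0585 to 0.0618 CPM (counts scaled to library size by TMM, the level used below). SETD7 had 27.8, 43.8 and 26.7 CPM in Set7KD, against 180.5, 178 and 176 CPM in NTC. Of 12 endothelial markers 10 had a value, among them CDH5 at 119 ± 11.4 CPM in Set7KD and 206 ± 32.1 CPM in NTC and VWF at 10.1 ± 0.645 and 9.7 ± 2.25 CPM (SD, n = 3 each); PECAM1 and CLDN5 were not analysed here. The summed level of the endothelial markers was 412 to 451 CPM in Set7KD and 516 to 660.3 CPM in NTC, with 2 of 10 higher (KDR and TEK) and 4 of 10 lower in Set7KD. That of 7 fibroblast markers was 3228 to 4173 CPM in Set7KD and 1547 to 2109 CPM in NTC with 4 of 7 higher, and that of 7 smooth muscle markers 580.0 to 847 and 216 to 239.5 CPM with 4 of 7 higher. The epithelial markers KRT18, KRT8 and EPCAM summed to 228 to 249 CPM in Set7KD and 219 to 262 CPM in NTC, and the blood markers CD14 and CD68 to 21.5 to 28.2 and 36.1 to 38.7 CPM. Further listed markers had no value: DCN and FAP (fibroblast), DES (smooth muscle), CDH1, KRT5 and KRT14 (epithelial), and PTPRC, CD3E and HBB (blood). The part of these marker shifts in the results below was not tested, and in bulk RNA fewer cells of a type and less RNA per cell cannot be told apart.

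The amino acid response did not move in a single direction. Of the 41 genes 11 were higher and 15 were lower in Set7KD at an edgeR adjusted p under 0.05, the threshold for every call below, and 15 were not called. These 26 calls are 63.4% of the genes, where 36.2% of all 18482 genes tested were called, 17.6% higher and 18.6% lower. Here and below, the shares over all genes were not matched for level. Only 11151 genes had a mean of at least 10 CPM, while most of the 41 did. The part of level in the differing shares was not tested. Regulators leaned downward, with 3 higher and 6 lower of 12 and a median log2 fold change of -0.38, while the synthetases divided, with 6 higher and 5 lower of 18 and a median of 0.07. Over the 7 enzymes 1 was higher and 2 were lower with a median of 0.00, and over the 4 transporters 1 was higher and 2 were lower with a median of -0.14. The median over all genes tested was -0.01. Whether the roles differ from each other was not tested.

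Most of these differences were small. The 3 Set7KD values lay all above or all below the 3 NTC values for 32 of the 41 genes (16 above and 16 below), or 78.0%, where 47.4% of all genes did so, 23.3% above and 24.1% below. Only 3 called genes differed by a fold of 2 or more, CHAC1 and SLC7A11 downward and ALDH1L2 upward. Against a minimum fold of 1.2 the edgeR test kept 10 of the 41 genes, or 24.4%, where it kept 12.0% of all genes. The 10 were ATF4, CHAC1, NUPR1, SHMT2, SLC7A11, CARS, QARS and WARS, all lower, and ALDH1L2 and RARS, both higher. These same 10 genes were called in all fits run, including every fit without 1 library and every fit without both libraries of a replicate number. Without both replicate 1 libraries 14 of the 41 were called, in a fit that called 16.1% of all genes.

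**Figure D1:**
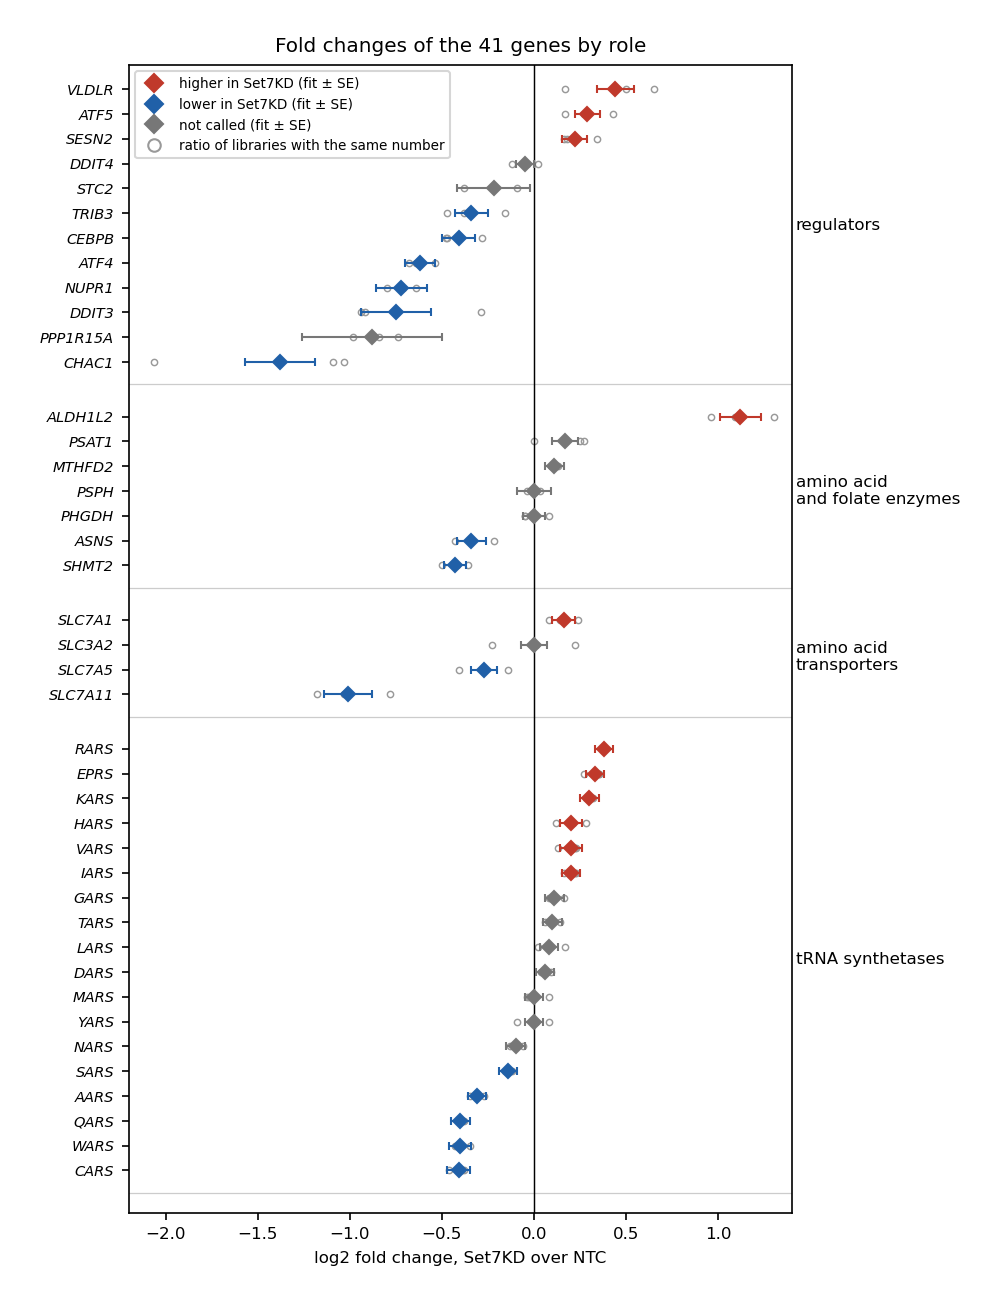
Log2 fold changes (x axis, Set7KD over NTC) of the 41 genes (y axis, grouped by role and ordered within it). Diamonds are the edgeR estimates with their standard errors, coloured by call, and open circles the 3 ratios of libraries with the same replicate number. The estimates run from -1.38 for CHAC1 to 1.12 for ALDH1L2, and the synthetases stay between -0.41 and 0.38.

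Since ATF4 acts through the C/EBP-ATF element, the promoters of the genes were searched for it. Each RefSeq promoter window (GRCh38.p14) spans 250 bases before to 50 bases after a transcription start, and the core was written as TGATGNAA, or TTNCATCA when it lies on the other strand. Of the 32 genes with a window 11 (34.4%) held it, where 312 of 11217 genes of the count table with a window did, or 2.78%. By role it stood in 7 of 14 synthetases, 2 of 3 transporters, 1 of 4 enzymes and 1 of 11 regulators (CHAC1). By direction it stood in 4 of the 12 lower genes with a window, 2 of the 9 higher and 5 of the 11 not called. Genes with these letters were thus called both ways. The 2 higher ones, SLC7A1 and IARS, lost their calls without both replicate 1 libraries, whereas the 4 lower ones kept theirs. Against a fold of 1.2 the lower genes ASNS and AARS lost their calls too, as did SLC7A1 and IARS. Only CHAC1 and CARS kept theirs in that test. A match is a description of the letters and not a measured binding site. The search covered only these windows and this spelling, so a gene without a match may hold the element elsewhere.

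The lower genes with a match are shown first, then the higher ones, then examples that were not called. Each line reads 5′ to 3′ on the strand of the gene, with the 8 letters of the match in capitals, since this element is what the genes are thought to share. The core TTGCATCA stands in 6 of the 8 lines, among them lower, higher and uncalled genes. That share depends on the examples chosen. The matches not printed, all in uncalled genes, read TTACATCA in SLC3A2, TTTCATCA in GARS and TGATGCAA in NARS. The last is the same core on the other strand.
CHAC1 (lower; chr15:40953251-40953280, plus strand): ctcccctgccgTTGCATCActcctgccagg
ASNS (lower; chr7:97872458-97872487, minus strand): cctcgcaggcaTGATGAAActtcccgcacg
AARS (lower; chr16:70289675-70289704, minus strand): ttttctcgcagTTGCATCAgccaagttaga
CARS (lower; chr11:3057407-3057436, minus strand): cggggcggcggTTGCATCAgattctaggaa
SLC7A1 (higher; chr13:29595663-29595692, minus strand): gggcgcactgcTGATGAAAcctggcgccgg
IARS (higher; chr9:92293692-92293721, minus strand): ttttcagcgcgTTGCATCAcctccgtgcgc
MARS (not called; chr12:57488053-57488082, plus strand): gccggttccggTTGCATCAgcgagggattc
TARS (not called; chr5:33440956-33440985, plus strand): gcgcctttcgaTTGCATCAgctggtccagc

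ATF4 itself, with no match in its own windows, was lower. It had 113, 118 and 95.3 CPM in Set7KD, against 176, 172 and 152 CPM in NTC. The highest Set7KD library lay below the lowest NTC library, and replicate 3 was the lowest of its group in both groups. The log2 fold change was -0.62 with a standard error of 0.08 (edgeR adjusted p = 8.41e-05), and with 3 libraries against 3 no exact two-sided permutation test of a single gene can go below p = 0.1. The listed ATF4 pseudogenes ATF4P4 and ATF4P3, whose reads could be shared with ATF4, stood at only 3.98 ± 0.554 and 2.29 ± 0.323 CPM in Set7KD and 4.78 ± 0.589 and 3.42 ± 1.11 CPM in NTC (SD, n = 3 each).

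The regulators CHAC1, NUPR1 and DDIT3 were lower. CHAC1, an enzyme that degrades glutathione, had 2.78, 1.98 and 3 CPM in Set7KD, against 5.91, 8.25 and 6.14 CPM in NTC, the lowest fold change of the 41 genes (log2 -1.38, standard error 0.19, edgeR adjusted p = 4.29e-05). Its level was low in all libraries, and the highest Set7KD value was below the lowest NTC value. NUPR1, a small stress-induced nuclear protein, had 10.3, 9.7 and 7.53 CPM in Set7KD, against 16, 16.9 and 12.3 CPM in NTC, with no overlap (log2 -0.72, standard error 0.14, edgeR adjusted p = 0.00115). DDIT3, the transcription factor also called CHOP, had 14.4, 16.6 and 15.2 CPM in Set7KD, against 27.3, 31.7 and 18.6 CPM in NTC. NTC replicate 3 stood close to the Set7KD values, the other NTC libraries well above them, and the call (log2 -0.75, edgeR adjusted p = 0.0175) was less firm. It was lost without Set7KD replicate 1, 2 or 3 or without NTC replicate 1, at adjusted p of 0.066, 0.0684, 0.0739 and 0.0587. DDIT3 overlaps MARS and MBD6 on the opposite strand, and no label states whether the counting used strand. MARS had 175 ± 5.59 CPM in Set7KD and 175 ± 5.99 CPM in NTC, and MBD6 had 48.6 ± 2.79 and 56.1 ± 3.54 CPM.

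TRIB3 and CEBPB followed with smaller falls. TRIB3, a pseudokinase that restrains ATF4 in a feedback loop, had 22.6, 19.5 and 21.6 CPM in Set7KD, against 29.4, 27.1 and 24.2 CPM in NTC (log2 -0.34, edgeR adjusted p = 0.00884). The call was lost without NTC replicate 1, at an adjusted p of 0.064, without both replicate 1 libraries at 0.0973 and without both replicate 2 libraries at 0.054. CEBPB, a C/EBP factor that pairs with ATF4, had 20.6, 18.2 and 19.5 CPM in Set7KD, against 28.5, 25.3 and 23.6 CPM in NTC (log2 -0.41, edgeR adjusted p = 0.00245). The groups of both genes did not overlap, and CEBPB lost its call without both replicate 1 libraries, at an adjusted p of 0.0503, and against a fold of 1.2, at 0.11.

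In PPP1R15A and STC2 the libraries with the same replicate number moved together. PPP1R15A, the phosphatase subunit that reverses eIF2 phosphorylation, had 112, 118 and 68.5 CPM in Set7KD, against 201, 233 and 115 CPM in NTC. Replicate 3 was much lower than the other libraries in both groups, the groups overlapped, and the gene was not called (log2 -0.88, standard error 0.38, edgeR adjusted p = 0.154). Within each replicate number the log2 ratio of Set7KD to NTC was -0.84, -0.98 and -0.74, and with the replicate number as a block the adjusted p was 8.13e-09. STC2, a secreted glycoprotein, had 46.8, 37.8 and 60.5 CPM in Set7KD, against 54.6, 49.4 and 64.6 CPM in NTC, with replicate 3 the highest in both groups. It too was not called without the block (edgeR adjusted p = 0.469) and was with it, at 0.00783 and a log2 fold change of -0.23. Without both replicate 3 libraries PPP1R15A was called at 1.15e-06 and STC2 at 0.0464. With the block 30 of the 41 genes were called, where 42.8% of all genes were.

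A few regulators rose. VLDLR, a lipoprotein receptor, had 28.7, 24 and 26.3 CPM in Set7KD, against 20.2, 21.4 and 16.8 CPM in NTC (log2 0.44, standard error 0.10, edgeR adjusted p = 0.00309). ATF5, a factor related to ATF4 and regulated at translation in a like way, had 39.3, 38.3 and 38.8 CPM in Set7KD, against 32.5, 34 and 28.8 CPM in NTC (log2 0.29, edgeR adjusted p = 0.00668). SESN2, a leucine sensor that inhibits mTORC1, had 42.5, 43.5 and 42.5 CPM in Set7KD, against 37.5, 38.9 and 33.5 CPM in NTC (log2 0.22, edgeR adjusted p = 0.0214). For all 3 genes each Set7KD library was above each NTC library. SESN2 lost its call without Set7KD replicate 1 (adjusted p = 0.0533) or NTC replicate 3 (0.0903), and without both replicate 1 libraries VLDLR reached 0.0703, ATF5 0.0893 and SESN2 0.131. ATF5 and SESN2 were also lost without both replicate 3 libraries, at 0.0502 and 0.108. ATF5 lies across from NUP62 and IL4I1 on the opposite strand, and NUP62 rose as well (155 ± 3.31 CPM in Set7KD and 137 ± 3.98 CPM in NTC, edgeR adjusted p = 0.0132). DDIT4, an inhibitor of mTORC1 also called REDD1, had 148, 154 and 159 CPM in Set7KD, against 160.1, 159 and 157 CPM in NTC, and was not called.

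**Figure D2:**
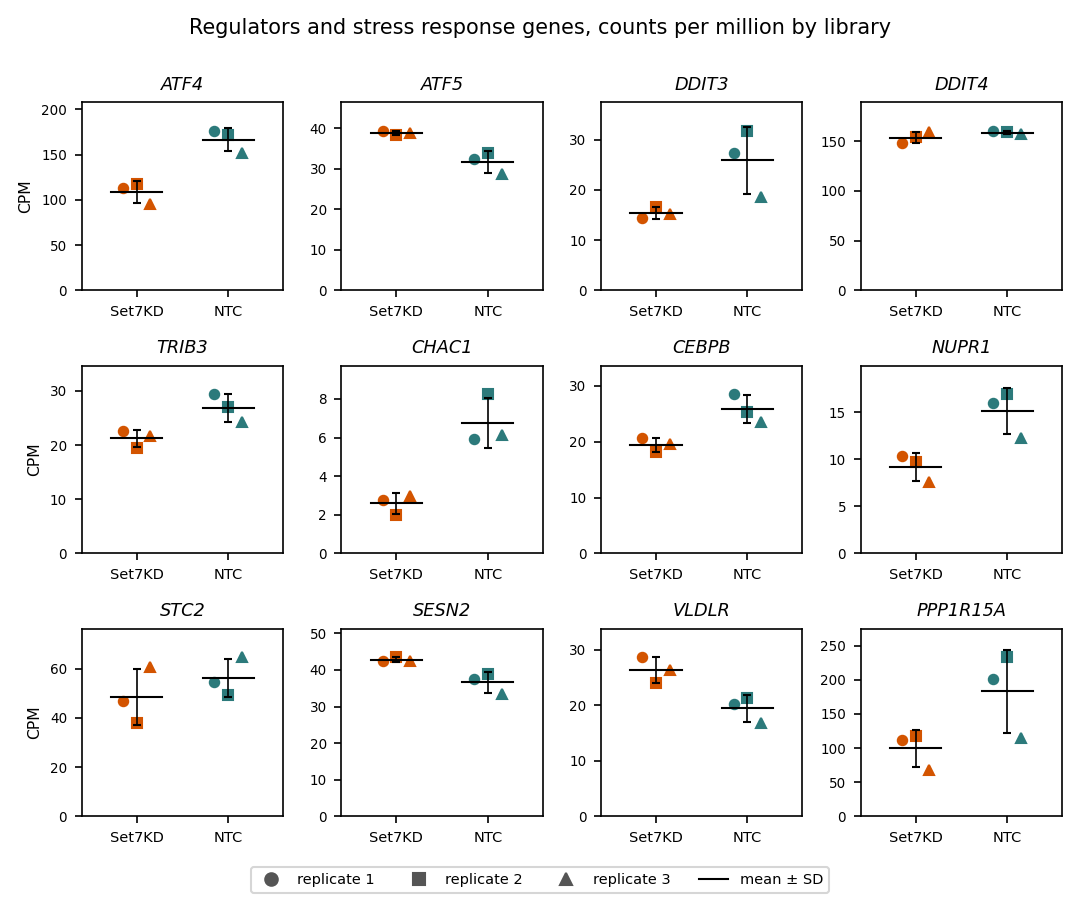
CPM (y axis, starting at 0) of the 12 regulators in the Set7KD and NTC libraries (x axis). Marker shapes give the replicate number, and lines the mean ± SD (n = 3). PPP1R15A shows replicate 3 low in both groups, at 68.5 CPM in Set7KD and 115 CPM in NTC, while ATF4, CHAC1 and NUPR1 are separated in every library.

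Of the enzymes SHMT2 and ASNS were lower and ALDH1L2 was higher. Serine is made in the cytosol by PHGDH, PSAT1 and PSPH in turn, and none of the 3 was called. PHGDH had 92.4 ± 4.27 CPM in Set7KD and 92.6 ± 1.83 CPM in NTC, and PSPH 17.5 ± 0.853 and 17.5 ± 0.413 CPM (SD, n = 3 each). Both differences had a log2 fold change of 0.00, with standard errors of 0.06 and 0.09. PSAT1 had 62.3, 59.7 and 63.4 CPM in Set7KD, against 51.6, 59.6 and 53.3 CPM in NTC, so that the groups met without overlap. It had an edgeR adjusted p of 0.0527, and was called with the replicate block (0.0297), without Set7KD replicate 2 (0.0359), without NTC replicate 2 (0.0159) and without both (0.00797), and narrowly with other scalings (0.0446 and 0.0447) or a stricter count filter (0.0459). Genes named as pseudogenes of PSAT1 and PSPH are in the table, so that shared reads could make these values uncertain. PSAT1P3, PSAT1P1 and PSPHP1 had 7.28 ± 0.563, 2.67 ± 0.459 and 5.85 ± 0.726 CPM in Set7KD and 7.15 ± 0.884, 1.97 ± 0.539 and 5.41 ± 0.499 CPM in NTC (SD, n = 3 each), and none was called.

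Of the mitochondrial enzymes that use serine and folate, one fell and one rose. SHMT2, which moves a one-carbon unit from serine to folate, had 119, 114 and 112 CPM in Set7KD, against 159, 161 and 144 CPM in NTC (log2 -0.43, standard error 0.06, edgeR adjusted p = 3.87e-05). ALDH1L2, a formyltetrahydrofolate dehydrogenase that releases the unit as carbon dioxide, had 18.7, 15.2 and 16.7 CPM in Set7KD, against 7.6, 7.17 and 8.54 CPM in NTC. This was the largest rise of the 41 genes, a fold of 2.17 (log2 1.12, standard error 0.11, edgeR adjusted p = 3.29e-06), and the lowest Set7KD library was well above the highest NTC library. MTHFD2, the enzyme between these steps, had 158, 165 and 156 CPM in Set7KD, against 144, 155 and 146 CPM in NTC, without overlap but not called (edgeR adjusted p = 0.133). ALDH1L2 lies across from C12orf45, which had 9.45 ± 0.906 CPM in Set7KD and 8.78 ± 0.502 CPM in NTC and was not called.

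ASNS, the asparagine synthetase and a standard readout of amino acid limitation, was lower. It had 24.9, 24.9 and 26.5 CPM in Set7KD, against 28.9, 31.6 and 35.7 CPM in NTC (log2 -0.34, standard error 0.08, edgeR adjusted p = 0.00593). The Set7KD libraries were almost alike, while the NTC libraries differed more among themselves. The match printed above for ASNS lies 68 bases before its start site.

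Among the transporters the cystine carrier fell most. SLC7A11, the antiporter that imports cystine for glutathione in exchange for glutamate, had 29.3, 24 and 29.3 CPM in Set7KD, against 50.5, 49.1 and 66.4 CPM in NTC, a fold of 0.498 (log2 -1.01, standard error 0.13, edgeR adjusted p = 4.15e-04). Every Set7KD library was far below every NTC library. The antisense gene SLC7A11-AS1 was lower too, with 2.63 ± 0.344 CPM in Set7KD and 4.97 ± 1.74 CPM in NTC (edgeR adjusted p = 0.00782), and the 2 could share reads if strand was not used.

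SLC7A5, a carrier of large neutral amino acids such as leucine, had 111, 95.9 and 122 CPM in Set7KD, against 135, 128 and 134 CPM in NTC (log2 -0.27, edgeR adjusted p = 0.012). Set7KD replicate 2 was the lowest, and the call was lost without NTC replicate 1 (adjusted p = 0.0545) and without both replicate 1 libraries (0.138). SLC3A2, the glycoprotein chain that both of these carriers need at the membrane, had 123, 110.2 and 127 CPM in Set7KD, against 123, 129.6 and 109 CPM in NTC, and the groups overlapped (log2 0.00, standard error 0.07, edgeR adjusted p = 0.966). SLC7A1, a carrier of arginine and lysine, had 211, 182 and 197 CPM in Set7KD, against 179, 173 and 179 CPM in NTC (log2 0.16, edgeR adjusted p = 0.0456). Its call was the weakest of the 26. It was lost without Set7KD replicate 1 (0.236) or 3 (0.0815), without NTC replicate 1 (0.105), 2 (0.122) or 3 (0.0643), without both libraries of replicate 1 (0.385) or 3 (0.0808), and with DESeq2 (0.0712) or limma-voom (0.0559).

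**Figure D3:**
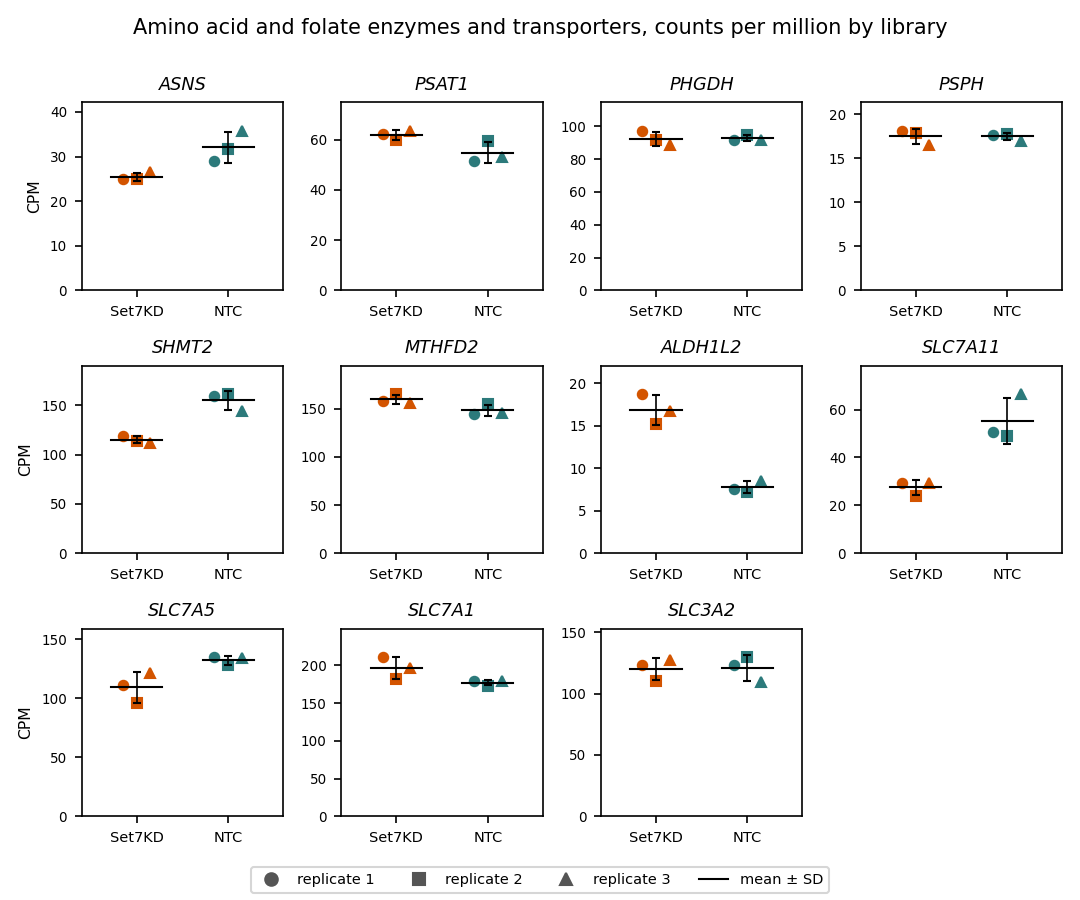
CPM (y axis, starting at 0) of the 7 enzymes and 4 transporters in the Set7KD and NTC libraries (x axis), with marker shapes for the replicate number and lines for the mean ± SD (n = 3). ALDH1L2 is higher (16.9 against 7.77 CPM) and SLC7A11 lower (27.5 against 55.3 CPM) in all Set7KD libraries, while PHGDH, PSPH and SLC3A2 overlap.

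The synthetases, which join each amino acid to its tRNA, were abundant and precise, and they did not move as a block. Their summed level was 3155 to 3174 CPM in Set7KD and 3082 to 3120 CPM in NTC, while single members differed by up to 0.41 on the log2 scale. RARS, EPRS, KARS, HARS, VARS and IARS were higher, CARS, QARS, WARS, AARS and SARS were lower, and 7 were not called. Per kilobase of exon AARS had the highest mean level in both groups (57.5 CPM per kb in Set7KD and 71.1 in NTC) and CARS the lowest (5.54 and 7.36), and both were among the lower genes.

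Of the higher synthetases RARS, for arginine, changed most. It had 119, 123 and 121 CPM in Set7KD, against 91.9, 93.9 and 92.7 CPM in NTC (log2 0.38, standard error 0.05, edgeR adjusted p = 3.95e-05), and all 3 ratios between libraries of the same number were 0.38. EPRS, a single protein that charges both glutamate and proline, had 289, 304 and 286 CPM in Set7KD, against 227, 238 and 237 CPM in NTC (log2 0.33, edgeR adjusted p = 1.54e-04). KARS, for lysine, had 188, 187 and 188 CPM in Set7KD, against 152, 149 and 155 CPM in NTC (log2 0.30, edgeR adjusted p = 2.08e-04). These genes were well separated in every library. The genes KARSP1 and KARSP3, pseudogenes of KARS by name, had 9.85 ± 0.441 and 2.47 ± 0.776 CPM in Set7KD and 8.03 ± 0.695 and 2.16 ± 0.211 CPM in NTC and were not called.

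IARS, HARS and VARS rose by less. IARS, for isoleucine, had 384, 385 and 381 CPM in Set7KD, against 328, 329 and 341 CPM in NTC (log2 0.20, edgeR adjusted p = 0.00409). HARS, for histidine, had 127, 119 and 124 CPM in Set7KD, against 105, 103 and 114 CPM in NTC (log2 0.20, edgeR adjusted p = 0.0118). VARS, for valine, had 115, 111 and 114 CPM in Set7KD, against 105, 94.6 and 97.9 CPM in NTC (log2 0.20, edgeR adjusted p = 0.0126). None of the 3 overlapped between groups, but the calls leaned on single libraries. HARS was lost without Set7KD replicate 1 (adjusted p = 0.0651), NTC replicate 1 (0.0619) or NTC replicate 2 (0.0515), VARS without Set7KD replicate 1 (0.0537) or NTC replicate 2 (0.0583), and without both replicate 1 libraries IARS reached 0.13, HARS 0.218 and VARS 0.0747. VARS was also lost without both replicate 3 libraries, at 0.0508. HARS overlaps its mitochondrial relative HARS2 on the opposite strand, which had 42.9 ± 2.3 CPM in Set7KD and 39.9 ± 2.52 CPM in NTC.

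Of the lower synthetases CARS, QARS and WARS had nearly the same fold. CARS, for cysteine, had 56.7, 54.2 and 55.9 CPM in Set7KD, against 73.6, 74.7 and 73.2 CPM in NTC, a fold of 0.753 (log2 -0.41, standard error 0.06, edgeR adjusted p = 4.88e-05). QARS, for glutamine, had 136, 134 and 137 CPM in Set7KD, against 182, 175 and 183 CPM in NTC, a fold of 0.756 (edgeR adjusted p = 2.00e-05). WARS, for tryptophan and known to be induced by interferon gamma, had 93, 98.5 and 94.6 CPM in Set7KD, against 125, 132 and 121 CPM in NTC, a fold of 0.759 (edgeR adjusted p = 5.18e-05). In these 3 genes the groups were clearly apart, and the libraries within each group were close. On the strand opposite WARS, RP11-638I2.8 was lower too, with 7.5 ± 0.614 CPM in Set7KD and 10.3 ± 0.49 CPM in NTC (edgeR adjusted p = 0.00621). It could share reads with WARS if strand was not used. The other overlapping genes, RP11-638I2.10 and WDR25, were not called. AARS, for alanine, had 262, 259.9 and 254 CPM in Set7KD, against 316, 321 and 323 CPM in NTC (log2 -0.31, edgeR adjusted p = 1.64e-04). SARS, for serine, had 178, 176 and 174 CPM in Set7KD, against 193, 197 and 191 CPM in NTC (log2 -0.14, edgeR adjusted p = 0.0341), the smallest change that was called. SARS lost its call without Set7KD replicate 1 (0.0968) or 3 (0.111), without NTC replicate 1 (0.0938) or 2 (0.0961), without both libraries of replicate 1 (0.217), 2 (0.076) or 3 (0.126), and with DESeq2 (0.0853).

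The other 7 synthetases were not called and stayed within 0.11 on the log2 scale. GARS had 182 ± 2.77 CPM in Set7KD and 169 ± 2.17 CPM in NTC (edgeR adjusted p = 0.0945, and 0.0465 with the replicate block), and TARS 168 ± 1.21 and 157 ± 3.26 CPM. NARS had 203 ± 3.13 CPM in Set7KD and 217 ± 6.75 CPM in NTC, and DARS 76.7 ± 0.439 and 73.3 ± 1.77 CPM (SD, n = 3 each). The groups of these 4 genes did not overlap, although their differences are small. LARS, MARS and YARS overlapped between groups, with log2 fold changes of 0.08, 0.00 and 0.00 and a standard error of 0.05 each.

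**Figure D4:**
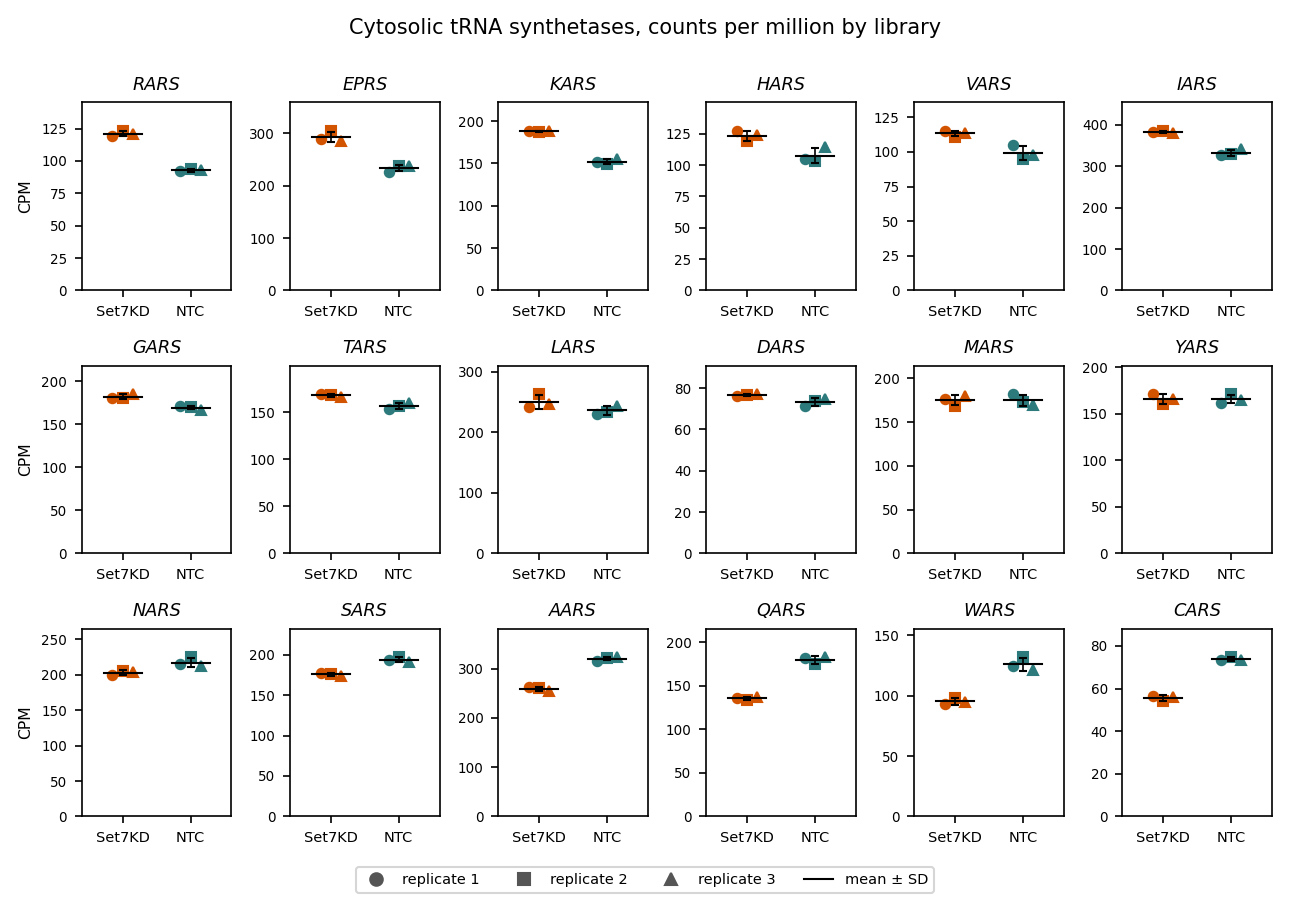
CPM (y axis, starting at 0) of the 18 cytosolic synthetases in the Set7KD and NTC libraries (x axis), ordered from the highest fold change (RARS) to the lowest (CARS). Marker shapes give the replicate number and lines the mean ± SD (n = 3); the top row holds the 6 higher genes and the last 5 panels the 5 lower ones.

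The synthetases can be sorted by protein family and by complex, a sorting chosen with earlier results of these data known. By catalytic fold, class I had 4 higher and 3 lower of 10 and class II had 2 higher and 2 lower of 8. Of the 8 that join the multi-synthetase complex, a large cytosolic assembly, 4 were higher (EPRS, IARS, KARS and RARS) and 1 was lower (QARS), with a median log2 fold change of 0.14. Of the 10 outside it 2 were higher (HARS and VARS) and 4 were lower (AARS, CARS, SARS and WARS), with a median of -0.05. The summed level was 1611 to 1641 CPM in Set7KD and 1464 to 1497 CPM in NTC inside the complex, and 1534 to 1551 and 1618 to 1644 CPM outside it. The called share was 70% in class I, 50% in class II, 62.5% inside the complex and 60% outside it, against 36.2% of all genes. Some of these calls, such as those of IARS, HARS, VARS and SARS, were lost with libraries left out, as given above. Whether the sets inside and outside the complex differ was not tested.

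Of the scaffold proteins of the complex EEF1E1 and AIMP2 were higher. EEF1E1 had 34.2, 34.3 and 31.3 CPM in Set7KD, against 25.4, 22.5 and 23.8 CPM in NTC (log2 0.48, edgeR adjusted p = 2.20e-04). AIMP2 had 46.8, 46.3 and 52.4 CPM in Set7KD, against 38, 34.3 and 37.1 CPM in NTC (log2 0.41, edgeR adjusted p = 3.86e-04). The third scaffold, AIMP1, had 59.2 ± 3.39 CPM in Set7KD and 53.4 ± 2.8 CPM in NTC and was not called (adjusted p = 0.0884, and 0.0443 with the replicate block). FARSB, the beta chain of the phenylalanine enzyme, rose to 71.9 ± 4.36 CPM in Set7KD, against 58 ± 2.5 CPM in NTC, while its partner FARSA had 67.7 ± 4.31 and 63.1 ± 2.95 CPM and was not called. In all, 3 of 9 entries of the list that holds these genes were called, each of them higher, or 33.3% against 36.2% of all genes. That list also holds genes of a mitochondrial amidotransferase, which are neither scaffolds nor cytosolic synthetases. Among them is GATC, entered under 2 identifiers, and none of these entries was called.

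Most mitochondrial synthetases are encoded by separate genes, and the share of calls among these was near that of all genes. KARS and GARS, given above, each encode both the cytosolic and the mitochondrial form. Of 16 tested 2 were higher and 4 were lower, or 37.5% called against 36.2% of all genes, and their median log2 fold change was -0.14. AARS2 fell to 26.1 ± 1.11 CPM in Set7KD, against 31 ± 1.4 CPM in NTC. CARS2 rose to 41.1 ± 3.48 CPM in Set7KD, against 34.2 ± 1.96 CPM in NTC, and RARS2 to 59.5 ± 1.02 CPM, against 52.1 ± 2.4 CPM. For cysteine the mitochondrial gene did not follow the cytosolic one, since CARS was lower while CARS2 was higher. For alanine both genes were lower and for arginine both were higher.

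Upstream of ATF4 the share of calls was near the 36.2% of all genes. Of 15 genes for eIF2, its exchange factor eIF2B and the stress kinases 4 were higher and 1 was lower, or 33.3%, with a median log2 fold change of 0.08. EIF2S1, the eIF2 subunit that the kinases phosphorylate, had 208, 214 and 203 CPM in Set7KD, against 158, 153 and 155 CPM in NTC (log2 0.42, edgeR adjusted p = 1.37e-05). EIF2B3, of the exchange factor, rose to 43.5 ± 2.12 CPM in Set7KD, against 35.1 ± 1.01 CPM in NTC. GCN1L1, which helps to activate the amino acid sensor kinase, rose to 280.2 ± 19.9 CPM, against 239 ± 15 CPM in NTC. That kinase, EIF2AK4 (GCN2), had 143 ± 5.49 CPM in Set7KD and 138 ± 7.2 CPM in NTC and was not called. EIF2AK2 (PKR) fell to 156 ± 6.27 CPM in Set7KD, against 177 ± 5.55 CPM in NTC. The kinase EIF2AK3 (PERK) rose to 46.1 ± 1.91 CPM, against 39.5 ± 1.88 CPM in NTC (edgeR adjusted p = 0.0162). EIF2AK1 was not called. These counts give messages only and say nothing of phosphorylation.

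Of the further genes of the ATF4 response more were lower than higher. Of 21 tested 4 were higher and 9 were lower, with a median log2 fold change of -0.27. These are 61.9% called, against 36.2% of all genes (17.6% higher and 18.6% lower). KLHL24, a ubiquitin ligase adaptor, had 14.2, 16.4 and 13 CPM in Set7KD, against 31.2, 35.2 and 29.4 CPM in NTC (log2 -1.13, edgeR adjusted p = 7.56e-07). ADM2, a peptide of the calcitonin family, had 2.96, 2.16 and 1.9 CPM in Set7KD, against 4.74, 6.56 and 5.32 CPM in NTC (log2 -1.24, edgeR adjusted p = 1.46e-04). In both genes the groups did not overlap, whereas ERO1L, an oxidase of the endoplasmic reticulum, rose to 157 ± 7.58 CPM in Set7KD, against 121 ± 4.43 CPM in NTC. GDF15, a secreted stress cytokine that p53 also induces, had a log2 fold change of -1.09. ATF3, a stress factor downstream of ATF4, had 41.3, 53 and 18.5 CPM in Set7KD, against 157, 183 and 54.9 CPM in NTC. Like PPP1R15A it was lowest in replicate 3 of both groups, and it was not called (edgeR adjusted p = 0.107) but was with the block (7.86e-11).

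The shares of calls among related enzymes and carriers were also near the 36.2% of all genes. Of 21 further enzymes 4 were higher and 5 were lower, or 42.9%, with a median log2 fold change of 0.05. CBS, which starts the path from homocysteine to cysteine, fell to 44.6 ± 2.42 CPM in Set7KD, against 70.7 ± 4.59 CPM in NTC, and PCK2, the mitochondrial PEP carboxykinase, to 19.6 ± 0.149 CPM, against 32.3 ± 2.13 CPM. TYMS, which makes thymidylate with a folate unit, fell to 289 ± 19.9 CPM, against 369 ± 30.6 CPM in NTC, and ATIC, a folate-using enzyme of purine synthesis, rose to 96.6 ± 1.98 CPM, against 78.7 ± 2.44 CPM. CTH, the next enzyme after CBS on that path, was low and not called (3 ± 0.24 CPM in Set7KD and 2.32 ± 0.333 CPM in NTC). Of 18 further transporters 4 were higher and 3 were lower, or 38.9%, with a median of -0.14. SLC7A6, SLC3A1 and SLC1A4 rose with log2 fold changes of 0.46, 0.59 and 0.58, and SLC38A1, a glutamine carrier, fell with -0.43. SLC38A2, the most abundant of them in CPM and induced by amino acid lack, had 869 ± 91.3 CPM in Set7KD and 892 ± 62.5 CPM in NTC and was not called.

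Most genes of the other arms of the unfolded protein response were higher. Of 16 genes of the XBP1 and ATF6 arms 10 were higher and 1 was lower, with a median log2 fold change of 0.22. These are 68.8% called, against 36.2% of all genes (17.6% higher and 18.6% lower). SDF2L1, a chaperone cofactor, rose to 26.1 ± 3.02 CPM in Set7KD, against 16.7 ± 0.795 CPM in NTC, and CRELD2 to 40.3 ± 4.12 CPM, against 26.7 ± 1.87 CPM. HSPA5 had a log2 fold change of 0.61, and EDEM1 was the single lower gene at -0.50. DDIT3, CHAC1 and TRIB3, which the ATF4 arm of the same response induces, were lower, as given above. The calls of DDIT3 and TRIB3 were lost in some fits with libraries left out. Of the 12 regulators 6 were lower in all, 3 were higher (ATF5, SESN2 and VLDLR) and 3 were not called. Whether the arms differ was not tested.

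**Figure D5:**
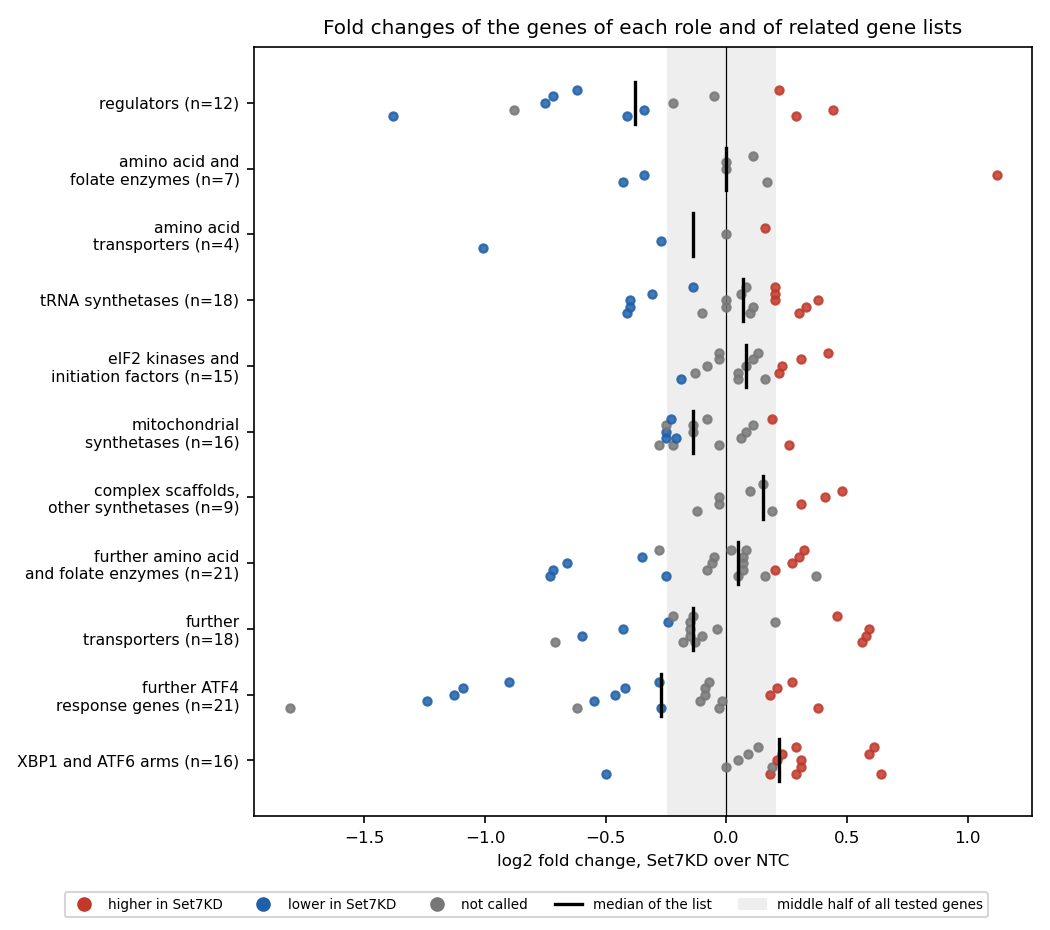
Log2 fold changes (x axis, Set7KD over NTC) of each gene by role and in related gene lists (y axis). Points are genes coloured by call, black bars the median of each list, and the grey band the interquartile range of all tested genes, from -0.24 to 0.20. The regulators and further ATF4 response genes have medians of -0.38 and -0.27, and the XBP1 and ATF6 arms a median of 0.22.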

How the data were processed

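Read counts per gene were deposited by the authors as 1 table of whole numbers without normalization. BWA, bedtools and hg19 appear in the submitters' processing notes, without versions. No label states how strand and multiply matching reads were treated. Reads outside annotated genes, 55.6 to 56.1% of each library, stayed out of library sizes and tests. Group and replicate number come from the titles.

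Counts were analysed with edgeR 4.0.16 in R 4.3.3 (filterByExpr, TMM, robust glmQLFit, glmQLFTest, group as the single factor), with Benjamini-Hochberg adjustment over 18482 genes. The procedure was run on simulated counts, drawn independently for each library with the same dispersion for every gene. That simulation held no effect shared by same-numbered libraries, so it did not cover this feature of the data. The standard error is the absolute log2 fold change over the square root of F. The design text calls the libraries biological triplicates; p-values reflect only their spread. Pairs of libraries of a group differed by more than sampling noise (a chi-square 2.98 to 9.85 times its degrees of freedom).

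Over 11151 genes of at least 10 CPM, same-numbered libraries deviated from their group means together, with correlations of 0.3, 0.42 and 0.34. Each exceeds 0.1, so same-numbered libraries were treated as pairs in the replicate block, the ratios by replicate number and the fits without both libraries of a number. The main fit, which gave the calls, did not use the pairing. The pairing comes from the data, as no label states what a number marks.

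Alternatives were other scalings and filters, the replicate block, DESeq2 1.42.0, limma-voom (limma 3.58.1), a minimum fold of 1.2, an adjusted p under 0.01, and libraries left out. The members, the further lists and all choices were made with earlier results of these data known. All members may be named; of further lists, up to 4 called genes with the smallest p and up to 3 others. The overlapping genes and copies were named for their position. Exon lengths, overlaps and pseudogenes are from GENCODE 29, on a later build than the counts. Promoters are RefSeq windows, with no entry for NUPR1, PSPH, SHMT2, ALDH1L2, SLC7A11, DARS, LARS, VARS and YARS; of 47 windows, 37 ended in letters of a GENCODE transcript of the gene on the same strand and 0 on the other.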

Additional observations from a re-analysis of the deposited data

How the results depend on the processing

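SETD7 stayed lower and called in all 18 alternatives, and no called gene of the 41 changed sign in any. Against a fold of 1.2, 903 genes were higher and 1314 lower, with 0 regulators higher and 3 lower, 1 enzyme lower, 0 transporters higher and 1 lower, 1 synthetase higher and 3 lower, and 10 of the 41 called. Without both replicate 1 libraries, 1414 genes were higher and 1562 lower, with 0 regulators higher and 3 lower, 0 transporters higher and 1 lower, 3 synthetases higher, and 14 of the 41 called; the cause was not tested beyond the fewer libraries. At an adjusted p under 0.01, 2103 genes were higher and 2197 lower, with 0 transporters higher and 1 lower. PSAT1 made the higher enzymes 2 with relative log expression or upper-quartile scaling, the filter of 50 counts, the replicate block, and without both replicate 2 libraries. With DESeq2 or limma-voom 0 transporters were higher, and without both replicate 3 libraries 0 transporters and 1 regulator were higher. Leaving out single libraries gave 2423 to 3214 genes higher and 2545 to 3303 lower, 2 to 3 regulators higher and 4 to 6 lower, 1 to 2 enzymes higher and 2 to 2 lower, 0 to 1 transporters higher and 1 to 2 lower, 4 to 6 synthetases higher and 4 to 5 lower, and 20 to 26 of the 41 called. The replicate block changed the calls of STC2, PPP1R15A, PSAT1 and GARS and no other call among the 41.

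PHGDH, SLC3A2, PSPH, MARS and YARS, which were not called, changed sign around 0. PHGDH had log2 fold changes of 0.00, 0.00 and 0.00 under the other scalings and DESeq2, and 0.00, 0.03, 0.01, 0.02 and 0.03 with libraries left out. SLC3A2 had 0.00, 0.05, 0.01, 0.05 and 0.11 (-0.07 without NTC replicate 3, its lowest), PSPH -0.02, -0.01, -0.02, -0.01 and 0.00, MARS -0.01, 0.00, -0.01 and -0.02, and YARS -0.02, -0.02, 0.00 and -0.04. Depth limits mainly CHAC1, with 46, 32 and 49 counts in Set7KD and 101, 137 and 105 in NTC.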
